A study of Mus musculus with 69 samples.

Results

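The bile acid and organic anion transporters are the 10 genes Slco1b2, Slc10a1, Slco2b1, Slco1a1, Slco1a4, Abcb11, Abcb4, Abcc2, Abcc3 and Slc10a2, chosen by symbol from the deposited gene tables. They are 10 of 55367 gene symbols, and all 10 were among the 17059 genes expressed highly enough to be tested. Hepatocytes take bile acids up from the blood through the sodium-dependent transporter encoded by Slc10a1 (NTCP), and take up bile acids and other organic anions through the sodium-independent carriers of the Slco family. They then secrete bile acids, phospholipid and conjugated anions across the canalicular membrane with ATP-driven pumps, namely Abcb11 (BSEP), Abcb4 (MDR2) and Abcc2 (MRP2). When canalicular secretion is impaired, basolateral pumps such as Abcc3 (MRP3) can carry conjugates back to the blood.

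The samples were livers of C57/Bl6J mice on a high-fat diet (HFD), sequenced for polyadenylated RNA, all with the genotype label J1 J2 lf/lf, in which the c-Jun N-terminal kinase (JNK) spliceoforms of hepatocytes were altered. The JNK7a group (CRE label, 22 libraries) and the JNK7b group (FLPO label, 23 libraries) were set against the control group (GFP label, 24 libraries). Livers were collected every 3 h at clock hours 2, 5, 8, 11, 14, 17, 20 and 23, with 2 to 4 libraries per group and hour. The labels do not say how GFP, CRE or FLPO was delivered, which spliceoform each group keeps, how old the mice were or when the lights were on, so a JNK change and the protein that goes with it cannot be told apart. Nor do they say that every library is a different animal, so the spread behind each p-value is that of these samples and may be technical.

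Library totals ran between 26.8 and 48.6 M estimated counts (M, mega), with a median of 32.7 M. The hepatocyte markers Alb, Ttr and Apoa1 were present in every group, and the sum of 8 hepatocyte markers lay between 72020 and 150300 CPM in JNK7a, between 60720 and 97780 CPM in JNK7b and between 75110 and 105700 CPM in control. CPM is the count scaled to the TMM-adjusted library total. In bulk liver, fewer cells of a type and less RNA per cell cannot be told apart. Each library correlated with the others of its group at a median Pearson r between 0.955 and 0.973 over all tested genes. Control 8 h replicate 3 and JNK7b 5 h replicate 2 were set apart in an earlier analysis of these data, and results that lose their call without both are named. By the median r given here they were not the lowest, at 0.960 for control 8 h replicate 3 and 0.965 for JNK7b 5 h replicate 2.

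Levels can be compared between genes only per transcript length, as TPM. In control livers, Slco1b2 averaged 449 ± 58.5 TPM and Slc10a1 415 ± 79.4 TPM (SD, n = 24 libraries here and for the other control means), differing by less than their spread and standing well above the other 8 genes. Abcb11 (109 ± 27.7 TPM), Abcb4 (107 ± 19.2 TPM), Abcc2 (89.2 ± 14.4 TPM), Slco1a1 (79.2 ± 54.5 TPM), Abcc3 (75.5 ± 19.1 TPM) and Slco2b1 (67.8 ± 9.18 TPM) formed a middle range in which neighbours also differed by less than their spread. Slco1a4 (17.2 ± 10.3 TPM) and Slc10a2 (15.1 ± 5.25 TPM) were the lowest. The order changed for Slco1a1, which at 204 ± 43.1 TPM (n = 22) came next after the leading pair in JNK7a. In JNK7b Slco1a1, at 137 ± 53.9 TPM (n = 23), exceeded Abcb11 (121 ± 31.3 TPM) and Abcb4 (119 ± 17.8 TPM) by less than its own spread. All further levels are in CPM, and compare libraries for the same gene.

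**Figure D1:**
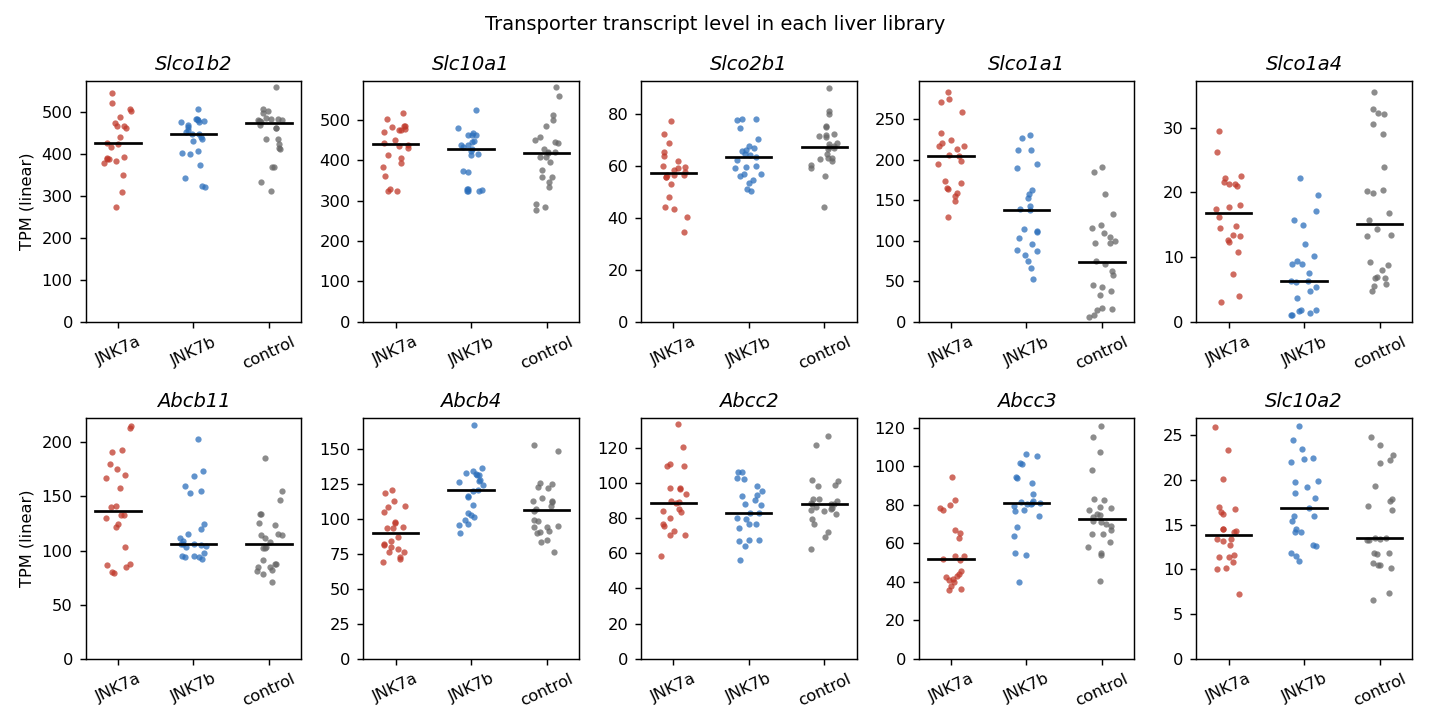
TPM (linear axis) of each transporter in every library of JNK7a (n = 22), JNK7b (n = 23) and control (n = 24). Each point is a library and the black line is the median. Slco1a1 is highest in JNK7a and lowest in control, Slco1a4 is lowest in JNK7b, and Slco1b2 overlaps across all 3 groups.

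Each group was compared with the others at matched clock hours, as the mean difference over the 8 hours, and a gene was called when its adjusted p was below 0.05 (edgeR's quasi-likelihood test, Benjamini-Hochberg over all 17059 genes). In JNK7a against control 6 of the 10 transporters were called, 3 higher and 3 lower, where 17.9% of all tested genes were called, 8.31% higher and 9.56% lower. Slco1a1, Abcb11 and Slc10a1 were higher in JNK7a, and Abcc3, Slco2b1 and Abcb4 were lower. In JNK7b against control 4 of 10 were called (11.3% of all genes, 5.6% higher and 5.74% lower), with Slco1a1, Abcb11 and Abcb4 higher and Slco1a4 lower. In JNK7b against JNK7a 6 of 10 were called (18.6% of all genes, 9.29% higher and 9.35% lower), with Abcb4 and Abcc3 higher, and Slco1a4, Slco1a1, Abcb11 and Abcc2 lower. The hepatocyte markers moved too: of 8, 3 were higher and 1 lower in JNK7a against control, 1 higher and 3 lower in JNK7b against control, and 1 higher and 5 lower in JNK7b against JNK7a. The 3 lower in JNK7b against control were Alb (log2 -0.21 ± 0.055, adjusted p = 0.0057), Ttr (log2 -0.285 ± 0.04, adjusted p = 3.0e-06) and Apoa1 (log2 -0.37 ± 0.08, adjusted p = 0.00045). The 1 higher was Glul (log2 0.27 ± 0.07, adjusted p = 0.0065), which is also counted among the pericentral markers below. In that comparison 4 of the 8 had a positive log2 fold change, with a median of -0.014. The part of the hepatocyte markers in the transporter differences was not tested. The median log2 fold change over the 10 transporters was 0.06 in JNK7a against control, 0.06 in JNK7b against control and -0.07 in JNK7b against JNK7a, beside 0.0015, -0.0035 and -0.0037 over all tested genes in the same order. The comparisons against control share the control libraries, and JNK7b against JNK7a shares libraries with both.

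**Figure D2:**
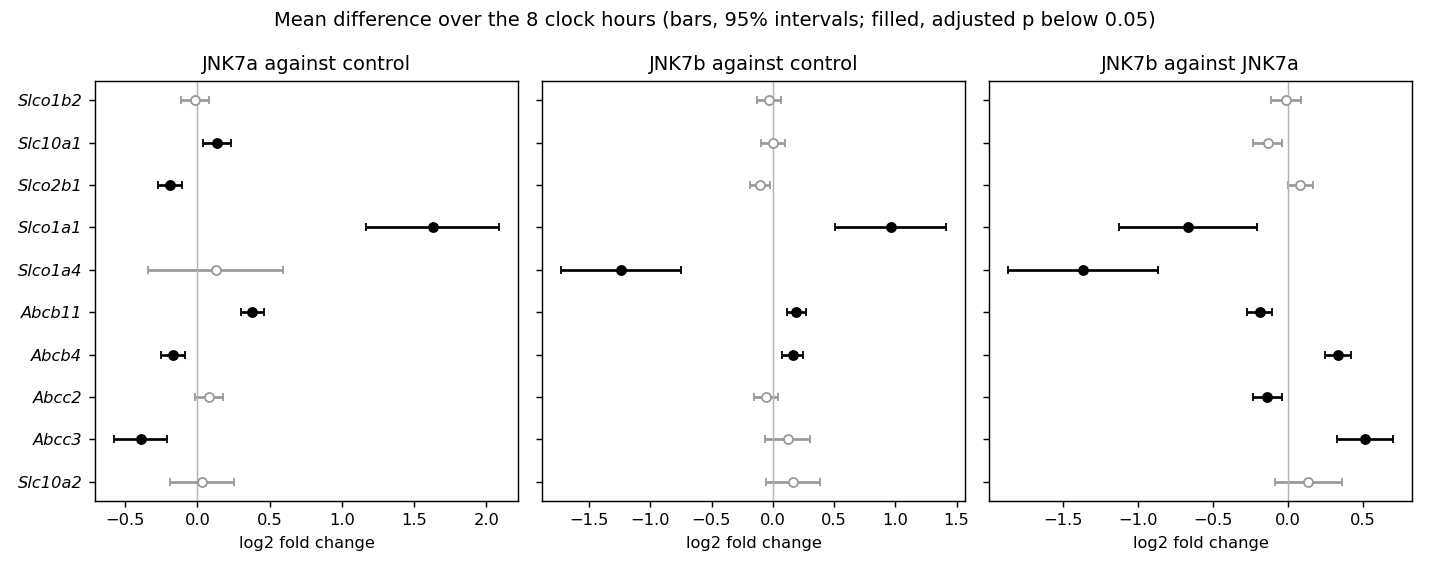
Log2 fold change of each transporter in JNK7a against control, JNK7b against control and JNK7b against JNK7a, as the mean over 8 clock hours. Bars are 95% intervals and filled points have an adjusted p below 0.05. The differences of Slco1a1 and Slco1a4 are the widest, at 1.63 for Slco1a1 in JNK7a and -1.24 for Slco1a4 in JNK7b against control.

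Slco1b2, Slco1a4 and Slco1a1 lie near each other on mouse chromosome 6 (mm10), at 141629518 to 141686646 on the plus strand, 141805440 to 141856199 on the minus strand and 141907282 to 141946962 on the minus strand. The distances between them in that order are 118793 and 51082 bases, and other genes within these stretches were not looked for. The 3 genes encode the organic anion transporting polypeptides OATP1B2, OATP1A4 and OATP1A1. Slco1a1 is known for higher expression in male than in female mouse liver, and Slco1a4 for induction by the xenobiotic receptor PXR. Slco1a1 and Slco1a4 were called between groups and Slco1b2 was not. The 250 bases before the RefSeq start of these 3 genes are printed for reference (RefSeq sequences, GRCm38.p6, 5′ to 3′ toward the start). Those of Slc10a1 and Abcb11, the uptake carrier and export pump with the clearest daily patterns, are printed with them. Capitals mark matches to TTCNNNGAA, the GAS motif recognised by STAT factors.
Slco1b2 (chr6:141629268-141629517, plus strand): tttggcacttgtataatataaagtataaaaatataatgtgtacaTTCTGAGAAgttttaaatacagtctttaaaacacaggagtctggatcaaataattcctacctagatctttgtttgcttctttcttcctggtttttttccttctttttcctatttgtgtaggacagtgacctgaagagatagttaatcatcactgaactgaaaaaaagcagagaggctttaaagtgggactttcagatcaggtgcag
Slco1a4 (chr6:141856221-141856470, minus strand): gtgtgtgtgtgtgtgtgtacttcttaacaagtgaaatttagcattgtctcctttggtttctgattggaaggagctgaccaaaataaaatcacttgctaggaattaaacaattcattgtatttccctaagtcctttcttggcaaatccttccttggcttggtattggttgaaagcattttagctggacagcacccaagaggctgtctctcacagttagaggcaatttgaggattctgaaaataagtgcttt
Slco1a1 (chr6:141946963-141947212, minus strand): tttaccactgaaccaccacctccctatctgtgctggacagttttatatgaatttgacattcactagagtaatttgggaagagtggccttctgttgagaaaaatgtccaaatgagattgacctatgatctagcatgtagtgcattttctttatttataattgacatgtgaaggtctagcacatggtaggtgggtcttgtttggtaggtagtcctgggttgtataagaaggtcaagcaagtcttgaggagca
Slc10a1 (chr12:80968706-80968955, minus strand): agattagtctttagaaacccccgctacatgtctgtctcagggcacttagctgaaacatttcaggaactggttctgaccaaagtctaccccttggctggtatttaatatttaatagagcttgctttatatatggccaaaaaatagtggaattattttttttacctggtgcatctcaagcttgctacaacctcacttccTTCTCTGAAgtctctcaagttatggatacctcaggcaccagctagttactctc
Abcb11 (chr2:69342617-69342866, minus strand): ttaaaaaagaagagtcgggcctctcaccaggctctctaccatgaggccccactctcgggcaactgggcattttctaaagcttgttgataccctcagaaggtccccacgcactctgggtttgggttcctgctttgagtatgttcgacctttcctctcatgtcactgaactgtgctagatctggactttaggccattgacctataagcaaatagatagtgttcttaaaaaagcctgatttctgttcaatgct
Windows of this kind were found for 9 of the 10 transporters, all but Abcc3, and 12 windows were searched on both strands because some genes have several starts. The GAS motif TTCNNNGAA was in windows of 3 of the 9 genes, at -206 to -198 from the start in Slco1b2, at -53 to -45 in Slc10a1 and before a further start of Slco2b1, and in 7.02% of all 32851 promoter windows. The AP-1 motif TGANTCA was in the window of Slc10a2 alone and in 6.75% of all windows. None of the 12 windows held the E-box CACGTG (6.02% of all windows), the D-box TTATGNAA (3.07%) or the exact inverted repeat core GTCANTGAC bound by FXR (0.32%). No match says only that these letters are not in the window.

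Slco1a1 was the transporter that differed most from control in JNK7a. Its level lay between 312 and 787.5 CPM in JNK7a, with a median of 583, between 143 and 627.5 CPM in JNK7b, with a median of 361, and between 13.4 and 516 CPM in control, with a median of 185. Of the 22 JNK7a libraries, 16 were above every control library, and 18 of the 24 control libraries were below every JNK7a library. Against control the log2 fold change in JNK7a was 1.63 ± 0.23 (SE; 3.09-fold, adjusted p = 6.4e-07), positive at all 8 clock hours.

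In JNK7b against control the log2 fold change of Slco1a1 was 0.96 ± 0.23 (1.95-fold, adjusted p = 0.0029). The sign was positive at all 8 hours, but the size ran from 0.005 at hour 11 and 0.18 at hour 17 to 2.88 at hour 14. No single hour had an adjusted p below 0.05. The groups overlapped more, and 5 of 23 JNK7b libraries were above every control library. The call over all hours was lost without clock hour 14, where the 2 JNK7b libraries had 412 and 472 CPM and the 3 control libraries 36.8, 43.0 and 99.95 CPM. With that hour left out, the log2 fold change was 0.69 (adjusted p = 0.067). In JNK7b against JNK7a it was -0.665 ± 0.24 (adjusted p = 0.040), negative at all 8 hours, but this call was lost without any one of clock hours 2, 11, 17, 20 and 23 (adjusted p 0.053 to 0.154), without any one of 19 single libraries (adjusted p 0.051 to 0.088), with no filter on low genes (adjusted p = 0.079) and with a replicate block within clock hours (adjusted p = 0.082).

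The control libraries were themselves spread widely in Slco1a1, and this held within single clock hours. At hour 5 the 3 control libraries had 21.9, 37.0 and 328 CPM, and at hour 20 the 4 control libraries had 13.4, 166, 276 and 286 CPM. The SD of log2 CPM within hours was 0.25 in JNK7a, 0.60 in JNK7b and 1.27 in control. The highest control library exceeded the lowest by 38.5-fold, against 2.53-fold in JNK7a and 4.38-fold in JNK7b. So the JNK7a libraries were closely grouped at a high level, and the highest control libraries lay within the JNK7a range. A test of the difference in spread was not run.

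Slco1a4 was lowest in JNK7b. It lay between 7.62 and 53.9 CPM in JNK7a, with a median of 31.6, between 1.99 and 34.7 CPM in JNK7b, with a median of 12.7, and between 8.65 and 61.0 CPM in control, with a median of 27.7. In JNK7b, 7 of 23 libraries were below every control library. Its log2 fold change was -1.24 ± 0.25 in JNK7b against control (SE; 0.425-fold, adjusted p = 0.00039) and -1.36 ± 0.25 in JNK7b against JNK7a (0.389-fold, adjusted p = 6.3e-05), and both calls held under every alternative run. In JNK7a against control it was 0.13 ± 0.24 (adjusted p = 0.82), which leaves a 95% interval of -0.34 to 0.59 on the log2 scale.

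The lowest Slco1a4 values in JNK7b came from clock hours 8, 11 and 23. At clock hour 11 both JNK7b libraries were low, at 1.99 and 2.52 CPM, against 24.7, 29.6 and 31.4 CPM in JNK7a and 11.1, 13.6 and 29.5 CPM in control. The log2 fold change at that hour was -3.66 ± 0.90 against JNK7a (adjusted p = 0.013) and -3.00 ± 0.88 against control (adjusted p = 0.0497). At hour 23 the 4 JNK7b libraries had 3.20, 4.03, 6.075 and 15.8 CPM, against 39.65, 41.45 and 53.9 CPM in JNK7a and 8.65, 41.1 and 51.0 CPM in control, with a log2 fold change of -2.20 ± 0.62 against control (adjusted p = 0.032). At hour 8 the libraries disagreed, with 2.165, 3.46 and 34.7 CPM in JNK7b. A test of whether the difference varied over the 8 hours did not call Slco1a4 in any comparison.

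**Figure D3:**
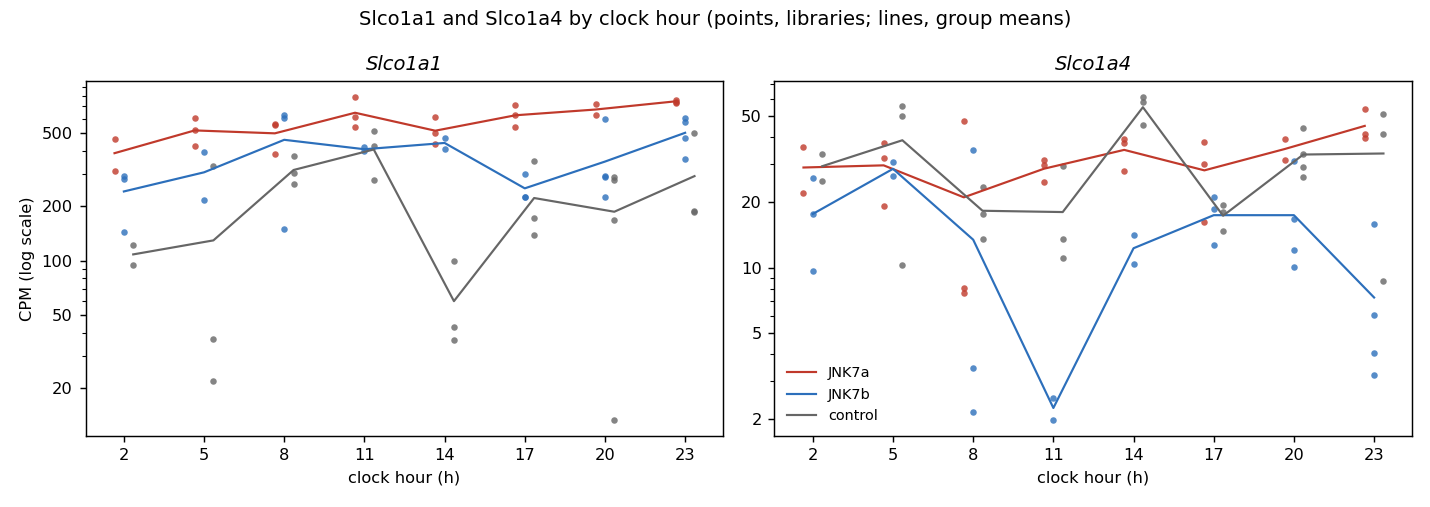
Slco1a1 and Slco1a4 in CPM (log axis) against clock hour in h; points are libraries and lines join group means. Slco1a1 in JNK7a stays at 311.6 CPM or above in every library while control falls to a mean of 59.9 CPM at hour 14, and Slco1a4 in JNK7b falls to a mean of 2.255 CPM at hour 11.

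Within 2 of the groups, livers with more Slco1a1 had less Slco1a4. Over the 23 JNK7b libraries log2 CPM of the pair correlated with Pearson r = -0.66 (permutation p = 0.00057) and Spearman rho = -0.68 (permutation p = 0.00039). Over the 24 control libraries Pearson r was -0.79 (permutation p = 2e-05, adjusted p = 0.0020) and Spearman rho -0.84 (permutation p = 1e-05, the smallest these permutations can give). The adjusted p for Pearson r in JNK7b was 0.012, adjusted by Benjamini-Hochberg over the 135 correlations of the transporters computed, 45 in each group. Without the 2 libraries farthest from the median of Slco1a1, r was -0.72 in JNK7b and -0.82 in control, and within clock hours it was -0.67 in JNK7b and -0.72 in control.

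In JNK7a, over 22 libraries, the same pair had r = 0.01 (permutation p = 0.95) and Spearman rho = 0.12 (permutation p = 0.60) over all hours, and r = -0.555 within clock hours. Slco1a1 in JNK7a spans only a narrow range, as given above. At clock hour 8 the relation was visible in single libraries of JNK7b, where replicate 3 had 149 CPM of Slco1a1 and 34.7 CPM of Slco1a4, while replicates 1 and 2 had 627.5 and 602 CPM of Slco1a1 and 2.165 and 3.46 CPM of Slco1a4. Abcc3 followed Slco1a4 and opposed Slco1a1 in JNK7b, with r = 0.65 for Slco1a4 (permutation p = 0.00074, adjusted p = 0.0125) and r = -0.64 for Slco1a1 (permutation p = 0.0011, adjusted p = 0.016). For these pairs Spearman rho was 0.585 (permutation p = 0.0040) for Slco1a4 and -0.70 (permutation p = 0.00042) for Slco1a1. Without the 2 libraries farthest from the median of Abcc3, r was 0.55 for Slco1a4 and -0.525 for Slco1a1. In control Abcc3 had r = 0.55 with Slco1a4 (permutation p = 0.0042, adjusted p = 0.034) and -0.515 with Slco1a1 (permutation p = 0.010, adjusted p = 0.065), and in JNK7a 0.22 (permutation p = 0.32) and -0.18 (permutation p = 0.42). Whether these correlations differed between groups was not tested. Of the 31-base stretches of Slco1a1 transcripts 4.00% also occur in another gene, most in Slco1a4, and of those of Slco1a4 5.03%, most in Slco1a5, so a small share of reads could be assigned to a neighbour of the family.

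**Figure D4:**
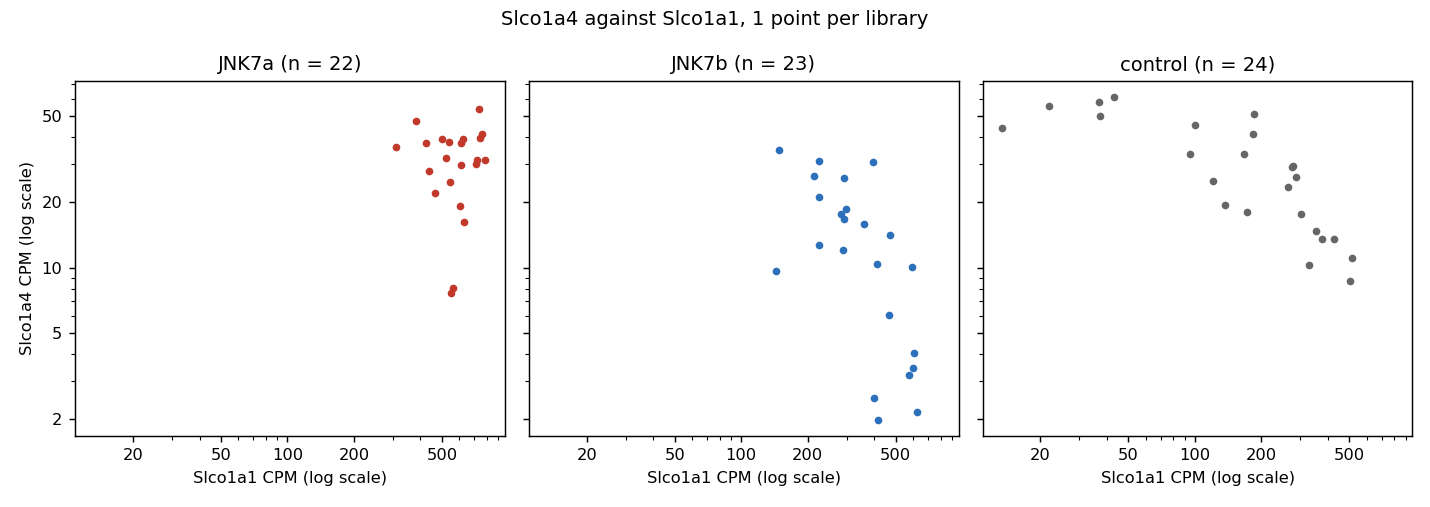
Slco1a4 against Slco1a1 in each library, both in CPM on log axes, for JNK7a (n = 22), JNK7b (n = 23) and control (n = 24). In JNK7b and control the points run downward (r = -0.66 and -0.79), and in JNK7a they are gathered at high Slco1a1 (r = 0.01).

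Slco1b2, also on chromosome 6 and the main hepatocyte carrier for unconjugated bile acids in mice, did not pass the test between groups. It lay between 599.7 and 1325 CPM in JNK7a, between 849 and 1317 CPM in JNK7b and between 854 and 1398 CPM in control. Its log2 fold change was -0.02 ± 0.05 in JNK7a against control (adjusted p = 0.92), -0.03 ± 0.05 in JNK7b against control (adjusted p = 0.82) and -0.01 ± 0.05 in JNK7b against JNK7a (adjusted p = 0.94). The 95% intervals of these log2 differences were -0.11 to 0.08 in JNK7a against control, -0.13 to 0.07 in JNK7b against control and -0.11 to 0.09 in JNK7b against JNK7a. The lowest of all Slco1b2 values, 599.7 CPM, belonged to a JNK7a library of clock hour 2.

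Slco2b1 (chromosome 7, 99657804 to 99711340, minus strand) encodes OATP2B1, a basolateral carrier of conjugated steroids and drugs. It averaged 151 ± 19.7 CPM in JNK7a, 161 ± 20.0 CPM in JNK7b and 172 ± 18.2 CPM in control. In JNK7a 5 of 22 libraries were below every control library, and the log2 fold change was -0.19 ± 0.04 (0.879-fold, adjusted p = 0.00085), negative at 7 of 8 hours. In JNK7b against control it was -0.10 ± 0.04 (adjusted p = 0.11), and it was called without clock hour 17 (adjusted p = 0.043).

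Slc10a1 (chromosome 12, 80953183 to 80968705, minus strand), the sodium-dependent bile acid carrier, differed little between groups on average. It averaged 552 ± 92.7 CPM in JNK7a, 498 ± 86.9 CPM in JNK7b and 504 ± 104.6 CPM in control, and the groups overlapped over most of their range. The log2 fold change in JNK7a against control was 0.14 ± 0.05 (1.10-fold, adjusted p = 0.042). This call was close to the threshold. It was lost with limma on log2(TPM + 1) (adjusted p = 0.23), a fit of only these 2 groups (adjusted p = 0.066), the additive design (adjusted p = 0.076) and a replicate block (adjusted p = 0.058), without the 2 libraries named above (adjusted p = 0.071), without any one of 6 clock hours (adjusted p 0.079 to 0.189) and without any one of 23 single libraries. In JNK7b against control the log2 fold change was 0.003 ± 0.05 (adjusted p = 1.0), and in JNK7b against JNK7a -0.14 ± 0.05 (adjusted p = 0.052). The difference from JNK7a was called under 8 of 20 other settings, among them DESeq2 (adjusted p = 0.045), a fit of only these 2 groups (adjusted p = 0.017) and without clock hour 2 (adjusted p = 0.0022) or 14 (adjusted p = 0.0063), and without any one of 13 single libraries (adjusted p 0.021 to 0.048).

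The hours were also compared as 2 sets chosen with earlier results of these data known, 8, 11, 20 and 23 against 2, 5, 14 and 17. The JNK7b difference of Slc10a1 from control had opposite signs in the sets, while JNK7b lay below JNK7a in the first set and near it in the second. Against JNK7a the single-hour log2 values of the second set had both signs, between -0.21 at hour 17 and 0.42 at hour 2. At hours 8, 11, 20 and 23 the JNK7b mean was 447 ± 64.0 CPM (SD, n = 13), the JNK7a mean 543 ± 69.1 CPM (n = 11) and the control mean 520.0 ± 104.5 CPM (n = 13). At hours 2, 5, 14 and 17 the JNK7b mean was 564.5 ± 66.3 CPM (n = 10), the JNK7a mean 561 ± 114 CPM (n = 11) and the control mean 486 ± 106.5 CPM (n = 11).

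The log2 fold change of Slc10a1 in JNK7b against control was -0.22 ± 0.07 in the 8, 11, 20 and 23 set (adjusted p = 0.013) and 0.23 ± 0.07 in the 2, 5, 14 and 17 set (adjusted p = 0.23). The difference between the sets was -0.45 ± 0.10 (adjusted p = 0.0032) for JNK7b against control, and -0.41 ± 0.10 (adjusted p = 0.0076) for JNK7b against JNK7a. In both, Slc10a1 was the only one of the 10 transporters called, where 3.87% and 6.13% of all genes were called. For JNK7a against control 0 of 10 were called by this edgeR test, with 1 at an unadjusted p below 0.05 and 0% of all genes called. The call against control held under every alternative run, and that against JNK7a was lost with limma on log2(TPM + 1) (-0.26, adjusted p = 0.059).

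Against control, the JNK7b difference of Slc10a1 was widest at hours 11 (log2 -0.39) and 14 (log2 0.45), and against JNK7a at hours 11 (log2 -0.51) and 2 (log2 0.42). At hour 11 the JNK7b libraries had 372.5 and 388.5 CPM, below the 519, 531.5 and 574.5 CPM of JNK7a and the 444, 521 and 526 CPM of control. At hour 14 they had 584.5 and 629 CPM, above the 543, 555 and 577 CPM of JNK7a and the 301, 466 and 567.5 CPM of control. None of these single-hour differences had an adjusted p below 0.05. In the test over all 8 hours at once, Slc10a1 in JNK7b had an adjusted p of 0.065 against control and 0.080 against JNK7a by edgeR, and 0.0074 and 0.016 by DESeq2.

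Of the canalicular pumps, Abcb11 (chromosome 2, 69238282 to 69342616, minus strand), which exports bile salts into bile, was higher in both altered groups. It lay between 354.5 and 791 CPM in JNK7a, with a median of 561, between 347 and 752 CPM in JNK7b, with a median of 418, and between 276.5 and 669.8 CPM in control, with a median of 399.9. In JNK7a 9 of 22 libraries were above every control library. Its log2 fold change was 0.38 ± 0.04 in JNK7a (1.30-fold, adjusted p = 3.4e-10) and 0.19 ± 0.04 in JNK7b (1.14-fold, adjusted p = 0.00062) against control, positive at all 8 hours in both.

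JNK7b was lower than JNK7a in Abcb11, by a log2 fold change of -0.19 ± 0.04 (adjusted p = 0.00063), though not with limma on log2(TPM + 1) (-0.12, adjusted p = 0.12). The difference between JNK7a and control was widest at clock hour 2, where its log2 value was 0.62 ± 0.14 (adjusted p = 0.0084), and at hour 5, where it was 0.64 ± 0.11 (adjusted p = 0.00059). It was 0.06 at hour 17, where the libraries of the groups lay together at 354.5, 376 and 385 CPM in JNK7a and between 350.0 and 361 CPM in control. Whether the Abcb11 difference varied by hour was tested and not called.

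Abcb11 had the strongest daily rhythm of the transporters, called in all 3 groups. A 24 h cosine peaked at clock hour 7.32 in JNK7a, 8.74 in JNK7b and 7.99 in control. The fitted peak was 1.99-fold over the trough in JNK7a (adjusted p = 3.5e-11), 1.70-fold in JNK7b (adjusted p = 1.0e-08) and 1.65-fold in control (adjusted p = 2.7e-08). Slc10a1 ran nearly opposite in phase, with a fitted peak at hour 17.7 in JNK7a (adjusted p = 0.010), 18.9 in JNK7b (adjusted p = 0.093) and 19.3 in control (adjusted p = 0.00034). Over single libraries the 2 genes were inversely correlated in JNK7a (r = -0.69, permutation p = 0.00033; Spearman rho = -0.72, permutation p = 0.00026) and in control (r = -0.65, permutation p = 0.00061; Spearman rho = -0.72, permutation p = 0.00011). The adjusted p was 0.012 for r in both groups. Libraries were permuted across clock hours, so these p-values do not set the opposite daily rhythms apart. Without the 2 libraries farthest from the median of Abcb11, r was -0.64 in JNK7a and -0.48 in control, and within clock hours it was -0.40 in JNK7a and -0.35 in control. In JNK7b the pair had r = -0.52 (permutation p = 0.012, adjusted p = 0.0685; Spearman rho = -0.42, permutation p = 0.047), -0.39 without the 2 farthest libraries, and within clock hours the sign was opposite, with r = 0.53.

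In all, a 24 h rhythm was called for 2 of 10 transporters in JNK7a (Abcb11 and Slc10a1), where 21.7% of all genes were called, for 2 of 10 in JNK7b (Abcb11 and, at an adjusted p of 0.047, Abcc2), with 14.1% of all genes, and for 4 of 10 in control (Abcb11, Abcb4, Slc10a1 and Slco2b1), with 19.5% of all genes. A difference of rhythm between groups was called for 0 of 10 in each comparison by edgeR, with 0, 1 and 1 transporters at an unadjusted p below 0.05 in JNK7a against control, JNK7b against control and JNK7b against JNK7a, and 0.0117%, 0% and 0.0469% of all genes called. With limma on log2(TPM + 1) the rhythm calls of Slc10a1 in JNK7a (adjusted p = 0.069) and Slco2b1 in control (adjusted p = 0.083) were lost, and that of Abcc2 in JNK7b was lost with 24 h and 12 h components together (adjusted p = 0.055) and with a replicate block (adjusted p = 0.056). Abcb4 in JNK7a was called under 5 of 10 other settings (adjusted p 0.021 to 0.045), and Slc10a1 in JNK7b under 2 (adjusted p = 0.035 and 0.015). A rhythm called in one group and not in another is therefore not shown to differ between them. Likewise, a difference that varied by clock hour was called for 0 of 10 by edgeR in these 3 comparisons, with 1, 2 and 4 at an unadjusted p below 0.05 and 0.00586%, 1.32% and 1.78% of all genes called.

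**Figure D5:**
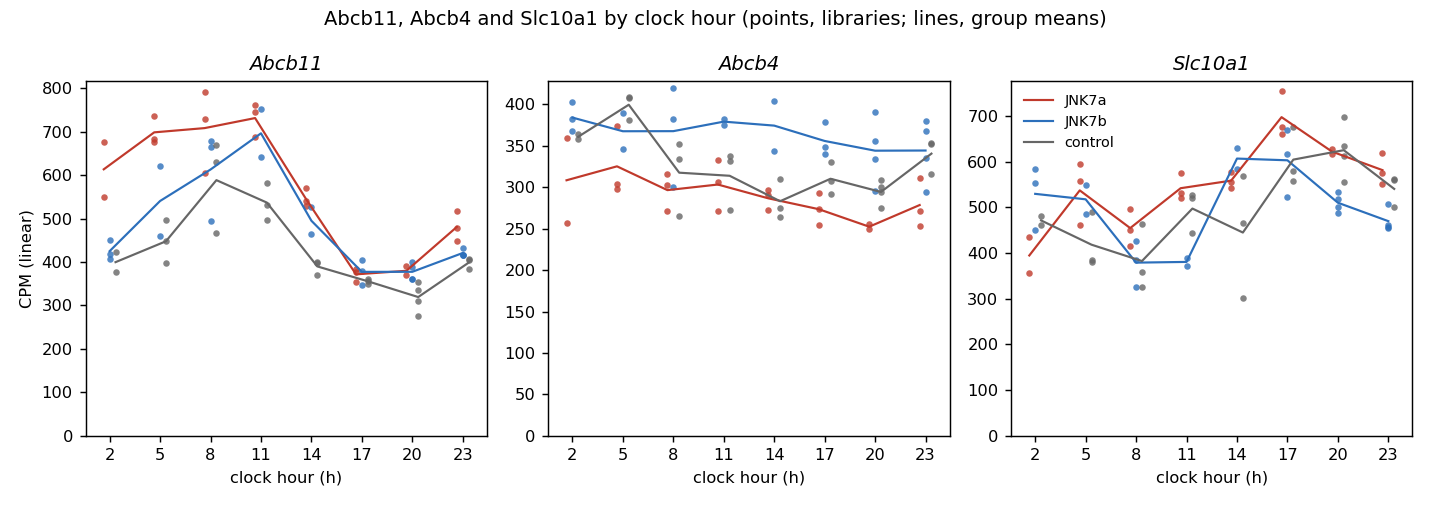
Abcb11, Abcb4 and Slc10a1 in CPM (linear axis from 0) against clock hour in h; points are libraries and lines join group means. The mean of Abcb11 is highest at hour 11 in JNK7a and JNK7b and at hour 8 in control, the mean of Abcb4 in JNK7a lies below JNK7b at every hour, and Slc10a1 in JNK7b has means of 380.5 CPM at hour 11 and 607 CPM at hour 14.

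Abcb4 (chromosome 5, 8893717 to 8959231, plus strand), the flippase that supplies phosphatidylcholine to bile, moved in opposite directions in the 2 altered groups. It averaged 292 ± 33.7 CPM in JNK7a, 362 ± 34.4 CPM in JNK7b and 325 ± 42.2 CPM in control. Against control, the log2 fold change was -0.17 ± 0.04 in JNK7a (0.89-fold, adjusted p = 0.0028) and 0.16 ± 0.04 in JNK7b (1.12-fold, adjusted p = 0.0067). The JNK7b call was lost with limma on log2(TPM + 1) (0.16, adjusted p = 0.098) and without clock hour 14 (0.13, adjusted p = 0.063). The contrast of JNK7b against JNK7a was larger, at 0.33 ± 0.04 (1.26-fold, adjusted p = 5.3e-08), positive at all 8 hours, with 11 of 23 JNK7b libraries above every JNK7a library. Abcb4 shares 4.74% of its 31-base stretches with other genes, most with Abcb1a, which was itself low (4.085 ± 2.03 CPM in JNK7b and 6.19 ± 3.55 CPM in control).

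Abcc2 (chromosome 19, 43782192 to 43840740, plus strand), which exports bilirubin glucuronide and other conjugates into bile, averaged 545 ± 84.2 CPM in JNK7a, 488 ± 61.5 CPM in JNK7b and 513 ± 56.9 CPM in control. Its log2 fold change against control was 0.08 ± 0.05 in JNK7a (adjusted p = 0.28) and -0.06 ± 0.05 in JNK7b (adjusted p = 0.55). In JNK7b against JNK7a it was -0.14 ± 0.05 (adjusted p = 0.044). That call sat at the threshold, being lost with limma on log2(TPM + 1) (-0.06, adjusted p = 0.54), voom (adjusted p = 0.056), a fit of only these 2 groups (adjusted p = 0.081) and a replicate block (adjusted p = 0.163), without the 2 libraries named above (adjusted p = 0.059), without any one of clock hours 5, 8, 11, 14, 17, 20 and 23 (adjusted p 0.05005 to 0.145) and without any one of 28 single libraries. Abcc2 correlated with Slco1b2 in every group, with r = 0.78 in JNK7a (permutation p = 0.00042), 0.76 in JNK7b (permutation p = 3e-05) and 0.58 in control (permutation p = 0.0025). Spearman rho was 0.55 in JNK7a (permutation p = 0.0089), 0.71 in JNK7b (permutation p = 0.00019) and 0.56 in control (permutation p = 0.0047). Without the 2 libraries farthest from the median of Abcc2, r was 0.62 in JNK7a, 0.665 in JNK7b and 0.49 in control, and the adjusted p of r was 0.012 in JNK7a, 0.0020 in JNK7b and 0.026 in control. Within clock hours r was 0.63 in JNK7a and 0.72 in JNK7b, but 0.14 in control.

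Abcc3 (chromosome 11, 94343295 to 94392997, minus strand), the basolateral efflux pump, was lower in JNK7a than in both other groups. It lay between 113 and 284 CPM in JNK7a, with a median of 188, between 180.2 and 387 CPM in JNK7b, with a median of 282, and between 133 and 387 CPM in control, with a median of 248.8. Its log2 fold change was -0.39 ± 0.09 in JNK7a against control (0.762-fold, adjusted p = 0.0015), 0.12 ± 0.09 in JNK7b against control (adjusted p = 0.48) and 0.51 ± 0.10 in JNK7b against JNK7a (1.43-fold, adjusted p = 5.1e-05). The called differences held under every alternative run. The groups overlapped in part, since 11 of 23 JNK7b libraries were above every JNK7a library and 2 of 22 JNK7a libraries were below every control library.

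Slc10a2 (chromosome 8, 5083219 to 5105351, minus strand) encodes ASBT, the bile acid transporter of ileum, kidney and bile duct cells. It was low in liver, between 24.3 and 79.8 CPM in JNK7a, between 34.3 and 77.2 CPM in JNK7b and between 19.5 and 78.1 CPM in control, and no comparison between groups called it. Its log2 fold change was 0.03 ± 0.11 in JNK7a (adjusted p = 0.92) and 0.17 ± 0.11 in JNK7b (adjusted p = 0.39) against control, and 0.14 ± 0.115 in JNK7b against JNK7a (adjusted p = 0.48). All 10 bile duct markers examined were measured, with sums of 50.7 to 168 CPM in JNK7a, 47.8 to 162 CPM in JNK7b and 44.2 to 131 CPM in control. Of 8 ileum and kidney markers, 3 were at 0 in every library of each group and 2 could be tested. The sums had medians of 117 CPM in JNK7a, 74.2 CPM in JNK7b and 130.1 CPM in control, made up mostly of the fatty acid binding protein gene Fabp2. The part of either tissue in the Slc10a2 level was not tested.

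Other genes of the bile acid system were taken from lists drawn up with earlier results of these data known. Of all tested genes, 17.9% were called in JNK7a against control, 11.3% in JNK7b against control and 18.6% in JNK7b against JNK7a. These shares also stand beside the regulator, further transporter, scaffold and marker counts that follow. Of 15 bile acid synthesis genes, 6 were higher and 3 lower in JNK7a against control, 1 higher and 3 lower in JNK7b against control, and 2 higher and 9 lower in JNK7b against JNK7a. The oxysterol hydroxylase gene Cyp7b1 had 323 ± 106 CPM in JNK7a livers and 109 ± 47.0 CPM in control livers (log2 1.66 ± 0.17, adjusted p = 3.1e-10). Baat, which conjugates bile acids to taurine and glycine, was at 198.5 ± 47.9 CPM in JNK7b and 258 ± 19.3 CPM in control (log2 -0.37 ± 0.05, adjusted p = 1.7e-08). The median log2 fold change of the synthesis list was 0.18 in JNK7a against control, 0.03 in JNK7b against control and -0.23 in JNK7b against JNK7a.

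Of 12 tested regulators of bile acid genes, 2 were higher and 2 lower in JNK7a against control, 0 higher and 2 lower in JNK7b against control, and 0 higher and 6 lower in JNK7b against JNK7a. Nr1i3, which encodes the receptor CAR, was at 122 ± 43.8 CPM in JNK7b and 165 ± 44.8 CPM in control (log2 -0.48 ± 0.08, adjusted p = 2.6e-05). It was also lower in JNK7a, at 136 ± 32.6 CPM (log2 -0.25 ± 0.08, adjusted p = 0.024). Nr1i2, which encodes PXR, averaged 54.0 ± 11.0 CPM in JNK7a livers, against 61.0 ± 12.3 CPM in control livers (log2 -0.13 ± 0.04, adjusted p = 0.011). In JNK7b against control Nr1i2 was not called. The regulator gene Rxra was called higher in JNK7a, at 404.7 ± 55.52 CPM against 378.1 ± 52.39 CPM in control (log2 0.101 ± 0.036, adjusted p = 0.043).

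Of 16 tested further transporters, 4 were higher and 0 lower in JNK7a against control, 2 higher and 1 lower in JNK7b against control, and 0 higher and 3 lower in JNK7b against JNK7a. The prostaglandin carrier gene Slco2a1 had 55.7 ± 16.2 CPM in JNK7a, 41.85 ± 16.0 CPM in JNK7b and 32.3 ± 11.9 CPM in control, called higher against control in JNK7a (log2 0.82 ± 0.10, adjusted p = 3.5e-08) and in JNK7b (log2 0.35 ± 0.10, adjusted p = 0.018). Of 12 canalicular scaffold and trafficking genes, 1 was higher and 1 lower in JNK7a against control, 2 higher and 1 lower in JNK7b against control, and 2 higher and 1 lower in JNK7b against JNK7a. Slc9a3r1, which encodes the scaffold EBP50 (NHERF1), was the member called in all 3 comparisons, with log2 fold changes of 0.18 ± 0.04 in JNK7a against control (adjusted p = 0.0013), -0.13 ± 0.04 in JNK7b against control (adjusted p = 0.032) and -0.30 ± 0.04 in JNK7b against JNK7a (adjusted p = 1.9e-07).

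Of 8 pericentral hepatocyte markers 2 were higher and 3 lower in JNK7a against control, 1 higher and 3 lower in JNK7b against control, and 1 higher and 3 lower in JNK7b against JNK7a, with sums of 4610 to 15470 CPM in JNK7a, 5372 to 12540 CPM in JNK7b and 7081 to 13280 CPM in control. Of 8 periportal markers 1 was higher and 0 lower in JNK7a against control, 0 higher and 1 lower in JNK7b against control, and 0 higher and 3 lower in JNK7b against JNK7a, where Hal, Arg1 and Cps1 were called and 0 of 8 had a positive log2 fold change. Of 8 macrophage markers 1 was higher in each altered group against control and 0 were called in JNK7b against JNK7a (sums of 64.7 to 391 CPM in JNK7a, 135.5 to 305 CPM in JNK7b and 77.35 to 283 CPM in control), and of 8 endothelial markers 1 was lower in JNK7a and 0 were called in JNK7b against control, and 1 was higher in JNK7b against JNK7a. Their part in the transporter differences was not tested.

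The genes whose log2 CPM followed each transporter most closely over all 69 libraries were sought among 11324 genes, as a description in which libraries share group and hour. Slco1a1 was followed most closely by Hsd3b5, a steroid dehydrogenase gene (r = 0.91), and the major urinary protein gene Mup21 (r = 0.88). Slco1a4 was followed by Cyp3a59, a cytochrome P450 gene (r = 0.77), and the carboxylesterase gene Ces2g (r = 0.745). Abcb11 was nearest to the purine metabolism gene Pnp (r = 0.87), Abcb4 to the lipid droplet coat gene Plin2 (r = 0.80) and Abcc3 to the fatty aldehyde dehydrogenase gene Aldh3a2 (r = 0.80) and the pantetheinase gene Vnn1 (r = 0.80). Slc10a1 was nearest to Cpsf4l (r = 0.785) and the lysosomal transporter gene Slc46a3 (r = 0.784), Slco2b1 to the methionine adenosyltransferase gene Mat1a (r = 0.76), and Slc10a2 to the inositol carrier gene Slc5a3 (r = 0.699). For Abcc2 the nearest of all was another of the transporters, Slco1b2 (r = 0.705).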

How the data were processed

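RNA purified with RNeasy columns and DNase was polyA-selected and read in pairs of 150 bases on a NovaSeq6000, per the labels' protocols. The submitters' processing notes name cutadapt, Salmon and the build mm10; for their versions and the annotation, nothing is given in the sources used here. The authors deposited estimated counts per gene, scaled by length, which were rounded here before testing. The authors also deposited TPM, used here for levels between genes and in alternatives. Lines sharing a symbol were summed.

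All 69 libraries entered 1 fit of edgeR 4.0.16 (TMM, filterByExpr by group and hour, robust quasi-likelihood test), with a coefficient for each of 24 combinations of group and clock hour and 45 residual degrees of freedom. At a common biological coefficient of variation of 0.275, library-to-library spread limits precision more than counting error does. Each standard error is worked back from its test as the size of the log2 value divided by the root of F. Rhythm used a cosine and sine of 24 h per group (60 residual degrees of freedom). P-values were adjusted by Benjamini-Hochberg over 17059 genes. Correlations used 100000 permutations, which shuffled the libraries of a group across clock hours. Their p-values therefore do not set a shared daily pattern apart, and none was computed for r within clock hours. Where the farthest libraries were left out, they were chosen by the gene named there and not by its partner. The script was tested on simulated data. No replicate pair agreed within sampling noise (chi-square per degree of freedom of 22.4 to 261 over 69 pairs). Salmon shares reads between similar transcripts, so near-identical genes are less certain. Gene positions come from GENCODE for mm10.

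The members, gene lists, sets of hours and tests were chosen with earlier results of these data known. All 10 transporters are named. From each list and comparison only some of the up to 3 called genes with the smallest p are named, and for each transporter the nearest 1 or 2 genes by Pearson r among those with a mean of at least 1 CPM. Alternatives changed the scaling (median-ratio size factors), the filter (none, or at least 1 CPM on average), the tool (DESeq2 1.42.0, or limma 3.58.1 with voom and quality weights), the values (limma on log2(TPM + 0.1) or log2(TPM + 1)), the groups in the fit, the design (additive, or with a replicate block), and the libraries (each clock hour, each library, or 2 libraries together left out; dispersions were kept from all libraries where single ones were left out). A filter by group only, and leaving out single libraries in the comparison of 2 sets of hours, were added after seeing the data. Protein sequences were not used here.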

Additional observations from a re-analysis of the deposited data

Results flagged for a closer look

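Slc10a1 was singled out because its JNK7b difference was not the same in the 2 sets of hours. These sets were chosen with earlier results of these data known. Between them, 3.87% of all tested genes were called in JNK7b against control and 6.13% in JNK7b against JNK7a. By the edgeR test over all 8 hours at once, Slc10a1 was not called in either comparison. The difference between the sets, hours 8, 11, 20 and 23 minus hours 2, 5, 14 and 17, was -0.453 on the log2 scale for JNK7b against control (adjusted p = 0.0032) and -0.412 for JNK7b against JNK7a (adjusted p = 0.0076, edgeR's quasi-likelihood test).

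In JNK7b at clock hour 23, the highest of the 4 libraries stood above the others for each of 2 transporters, without regard to whether it was the same library. Abcb11 had 433.5 CPM in its highest library and 416.0, 416.9 and 417.2 CPM in the other 3, and Slc10a1 had 506.8 CPM in its highest library and 454.9, 456.6 and 460.5 CPM in the other 3. The 3 combinations of group and hour with 4 libraries gave 30 such checks over the 10 transporters, and chance flags about 1 in 20.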

How the results depend on the processing

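Over 3972 values of single transporters under the alternatives, 3767 kept their direction and side of the threshold, 116 lost a call, 43 gained one and 46 turned in sign. For the difference between the 2 sets of hours, this tally holds only Slc10a1, Slco1a4 and Slco1b2, and only the JNK7b comparisons. Changes of the other transporters in that test are outside it. The calls of Abcb11, Slco1a1, Abcc3, Slco2b1 and Abcb4 in JNK7a against control, of Abcb11 and Slco1a4 in JNK7b against control, and of Abcb4, Abcc3 and Slco1a4 in JNK7b against JNK7a held under every alternative run. Leaving out single libraries gave 5 to 6 called transporters in JNK7a against control, 4 to 5 in JNK7b against control and 4 to 7 in JNK7b against JNK7a. JNK7b against control had 2 calls without clock hour 14 in place of 4.

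The replicate numbers did not pair the samples: of 62 same-numbered pairs, 0 had deviations correlated above 0.1, with a median r of -0.005 beside 0.005 for 136 other pairs. With the replicate block within clock hours 5, 4 and 4 transporters were called in the 3 comparisons, in place of 6, 4 and 6; with an additive replicate block the count of rhythmic transporters in JNK7b was 1 in place of 2.

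A difference that varied by clock hour was called for 1 transporter, Slc10a1, with no filter, DESeq2 and voom, in JNK7b against control and in JNK7b against JNK7a, in place of 0. Between the 2 sets of hours, JNK7b against JNK7a had 2 calls with DESeq2, 3 with voom, and 0 with limma on log2(TPM + 1) and on log2(TPM + 0.1), in place of 1. Leaving out single libraries gave 1 to 2 calls in that comparison and 1 to 2 in JNK7b against control. The libraries that gave 2 were control 5 h replicate 3 against control, and JNK7a 2 h replicate 1, JNK7b 2 h replicate 3 and JNK7b 8 h replicate 3 against JNK7a. With voom, 4 transporters were rhythmic in JNK7a in place of 2. The share of all genes called under each alternative is not given beside these counts or those in the paragraphs above. From the counts alone, a shift of the transporters and a shift over all genes cannot be told apart. The cause of these shifts was not tested.

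All values in the tally that turned in sign were close to 0 and not called. In JNK7a against control Slc10a2 was -0.012 and -0.011 with limma on log2(TPM + 1) and log2(TPM + 0.1) and -0.00039 without clock hour 2, and Slco1b2 was 0.029 without hour 2 and 0.0018 without hour 23. In JNK7b against control Slc10a1 was -0.012 without the 2 libraries left out together, -0.014 with the additive design, and -0.021, -0.040 and -0.061 without hours 2, 5 and 14, and Slco1b2 was 0.0039 with the replicate block and 0.018 without hour 23. In JNK7b against JNK7a Slco1b2 was 0.013 with voom, 0.061 with both TPM settings, 0.014 with the replicate block, and 0.021, 0.0068 and 0.016 without hours 11, 20 and 23. Leaving out single libraries, the range was -0.012 to 0.081 for Slc10a2, -0.052 to 0.195 for Slco1a4 and -0.071 to 0.027 for Slco1b2 in JNK7a against control, -0.024 to 0.030 for Slc10a1 in JNK7b against control, and -0.055 to 0.043 for Slco1b2 in JNK7b against JNK7a.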
